A study of Mus musculus with 4 samples.

Results

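Apolipoprotein L genes were examined in astrocyte-enriched primary cultures of mouse cerebral cells that had been exposed to interferon-gamma (IFNγ), to benztropine, or to both. The 6 genes described are *Apol6*, *Apol7a*, *Apol8*, *Apol9a*, *Apol9b* and *Apol10b*, each measured by 1 probe set annotated to that symbol alone, out of 22180 genes measured in this way. They were chosen by symbol at a time when their signals and their IFNγ and benztropine differences were already known, so every value below is a description and none carries a test. The arrays measure 13 apolipoprotein L genes in all, and the 7 outside this choice are given for context. The cells came from brains of 3-day-old C3H/He pups, and the cultures were left untreated as control or kept for 48 h with 250 IU/mL of IFNγ, with 2.0 μM of benztropine, or with the combination at these doses. IFNγ is a cytokine of T and NK cells, and benztropine is an antagonist of muscarinic acetylcholine receptors used in Parkinson’s disease. Each condition was hybridized once, with RNA pooled from 3 cultures, so the design has 4 arrays and holds no spread between replicates.

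Proteins of the apolipoprotein L family carry amphipathic helices that can insert into membranes. The best known of them, human APOL1, travels on serum lipoprotein particles and kills African trypanosomes by forming a pore. Mice carry an expanded cluster of these genes in place of the human set, and their products are thought to act inside the cell. *Apol9a* and *Apol9b* are interferon-induced genes in the mouse, encode nearly identical proteins that bind phosphatidylethanolamine, and restrict the replication of some viruses. Human APOL6 can promote apoptosis when overexpressed.

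In the RefSeq annotation (GRCm38.p6), the 6 genes lie on chromosome 15 and are protein-coding. Of the 13 family genes, 12 lie there, and *Apol7d*, annotated as a long noncoding RNA, lies on chromosome 1. *Apol9a* and *Apol9b* stand near opposite ends of the cluster and are transcribed from opposite strands. Promoter windows of 300 bases, from 250 before to 50 after the start site, were taken from RefSeq for 11 family genes, among them 5 of the 6 (all but *Apol6*). The windows of *Apol9a* and *Apol9b* had 0 mismatches over 281 aligned bases. Both hold a tandem match to the core of the interferon-stimulated response element (ISRE), a site bound by interferon regulatory factors. The part around it is printed for these genes, and for *Apol10b*, the third member with a match, from 150 bases before to 20 after the start site, with the matches in capitals. The stretches are chr15:77411061-77411230 on the minus strand for *Apol9a*, chr15:77728922-77729091 on the plus strand for *Apol9b* and chr15:77596106-77596275 on the minus strand for *Apol10b*, each written 5′ to 3′ along the gene.
Apol9a: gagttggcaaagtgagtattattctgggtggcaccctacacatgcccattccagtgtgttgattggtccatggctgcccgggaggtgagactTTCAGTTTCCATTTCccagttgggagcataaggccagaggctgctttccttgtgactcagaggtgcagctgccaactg
Apol9b: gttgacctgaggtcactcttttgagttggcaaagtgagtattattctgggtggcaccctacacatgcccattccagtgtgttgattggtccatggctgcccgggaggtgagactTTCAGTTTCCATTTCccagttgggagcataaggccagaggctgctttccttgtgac
Apol10b: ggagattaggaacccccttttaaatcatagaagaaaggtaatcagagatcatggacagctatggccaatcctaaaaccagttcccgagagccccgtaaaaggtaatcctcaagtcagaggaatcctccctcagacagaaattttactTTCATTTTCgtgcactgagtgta

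The ISRE core was searched on both strands as GAAANNGAA, which reads TTCNNTTTC on the opposite strand. In *Apol9a* and *Apol9b* it occurs as a pair of matches that share 3 letters and span 15. Their first base lies at −36 from the start site printed for *Apol9b* and at −58 from that printed for *Apol9a*, and at −85 and −104 from the other annotated start of each gene. In *Apol10b* a single match begins at −3. *Apol7a* and *Apol8* held no match. Of 32851 promoter windows of the same length, 8.56% held this core. The gamma-activated site, another element of interferon-responsive promoters, was searched as TTCNNNGAA, a sequence that reads the same on both strands. It was in none of the 5 members’ windows and in 3 other family genes, *Apol10a*, *Apol11a* and *Apol11b*, against 8.30% of all windows. A match is a run of letters and not a measured site, a missing match says only that these letters are not in this window, and the reference is that of C57BL/6J and not of C3H/He.

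**Figure D1:**
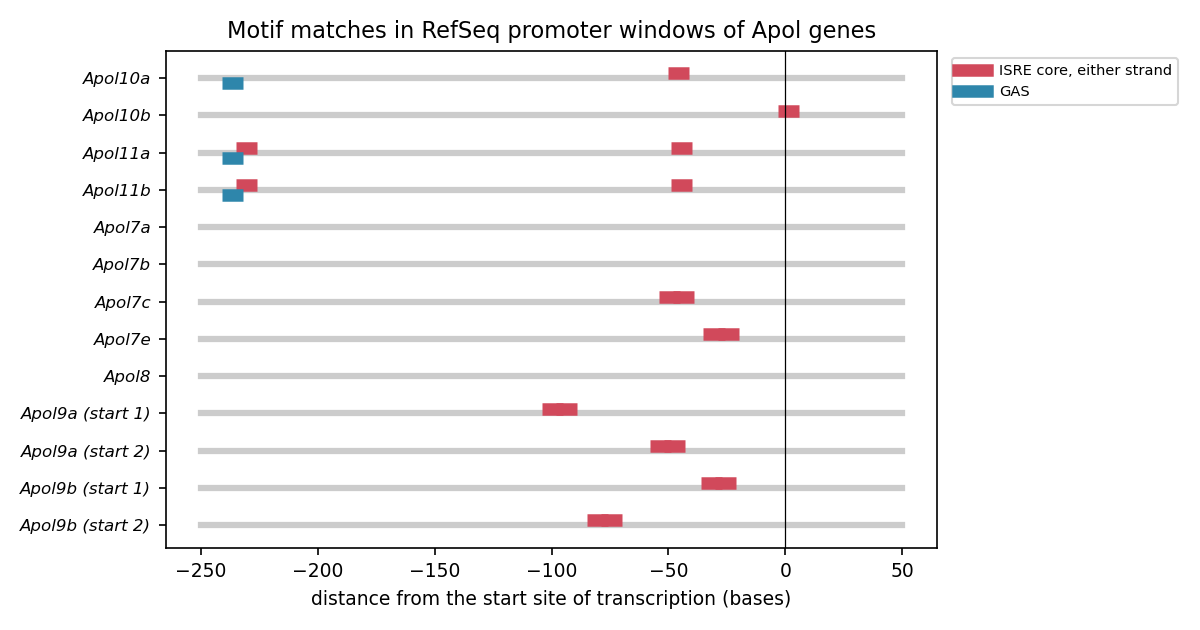
Position of motif matches in the RefSeq promoter windows (grey lines) of 11 apolipoprotein L genes, in bases from the start site of transcription, with 2 annotated starts for *Apol9a* and for *Apol9b*. Red marks are matches to the ISRE core on either strand and blue marks matches to the gamma-activated site. *Apol7a*, *Apol7b* and *Apol8* held neither.

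The deposited values are log2 signals, with a median over all 41345 probe sets of 6.65 to 6.68 on the 4 arrays. Background was set on each array from 1400 probe sets of olfactory and of vomeronasal receptors, as their 95th percentile, which was 6.64 to 6.69. Between 57.6% and 58.8% of the 23521 single-symbol probe sets were above it. In the control array all 13 astrocyte marker genes of the list used were above background, but so were all 14 of microglia and macrophages, whereas 1 of 8 genes of T and NK cells was. In such a mixed culture, a change in the number of cells of a type and a change in RNA per cell cannot be told apart. With IFNγ against control, 2 of the 14 microglia and macrophage genes (*Ptprc* and *C1qb*) were higher past 1.5-fold, with a median log2 difference of 0.19 over the list and median signals of 10.75 to 10.90 on the 4 arrays. In the same pair 0 of the 13 astrocyte genes were higher, with a median of −0.13. Of all single-symbol probe sets, 1.41% were higher and 0.293% lower in this pair. With both agents against benztropine alone, 0 of the 14 microglia and macrophage genes were higher, with a median of 0.10, and 3 of 7 perivascular macrophage genes were lower. Of these 3 genes, 1 had both signals below background. In this second pair 1.26% of all single-symbol probe sets were higher and 0.349% lower. In that pair all 13 astrocyte genes had differences below 0, with a median of −0.18. Of all 23521 probe sets, 13979 had differences below 0, with a median of −0.04. Among the 13 astrocyte genes 1 was lower past 1.5-fold (*S100b*, −0.67). Its signal on the combined array, 6.34, was below background, so this value gives no measured fold. Also lower in that pair were 2 of 9 neuron genes, each with both signals below background. Of 9 fibroblast and leptomeningeal genes 1 was lower with IFNγ in each pair, *Dcn*, with log2 differences of −0.90 and −1.41. Its signal on the IFNγ array, 6.39, was below background, so the value of −0.90 gives no measured fold. The part of cell composition in the differences below was not tested.

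In the basal state, *Apol9a* was the 1 gene of the 6 with a signal above background. Its log2 signal was 8.73 on the control array and 9.28 on the IFNγ array, 8.36 on the benztropine array and 9.22 on the combined array, so that it stood above background on every array and the arrays with IFNγ were the highest. *Apol9b* had 5.13 on the control array and 7.62 on the IFNγ array, 6.11 on the benztropine array and 8.15 on the combined array. It was therefore below background in control and with benztropine alone, and above it on both arrays with IFNγ. *Apol10b* had 5.12 and 5.73 on the control and IFNγ arrays and 5.01 and 5.48 on the benztropine and combined arrays, below background throughout. *Apol6* ran from 5.84 to 6.07, *Apol7a* from 5.49 to 5.70 and *Apol8* from 6.05 to 6.22 over the 4 arrays, all below background. For these genes the arrays show no level, which is not to say that the transcripts are absent. Each probe set has a scale of its own, and the genes cannot be ranked against each other by these signals.

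**Figure D2:**
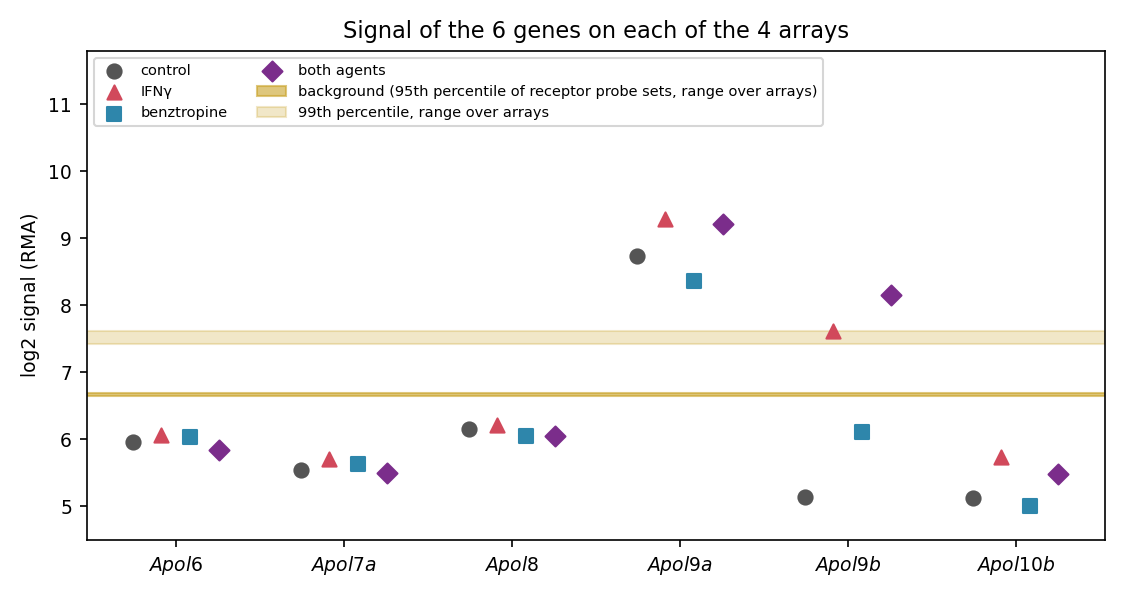
Log2 signal of each of the 6 genes on the control, IFNγ, benztropine and combined arrays, 1 point per array. The dark band is the 95th and the pale band the 99th percentile of the receptors used as background, each over its range on the 4 arrays. *Apol9a* lies above both bands on all arrays, and the other 4 genes lie below both. *Apol9b* lies above both on the combined array and below both on the control and benztropine arrays. On the IFNγ array *Apol9b* lies above the dark band and at the upper edge of the pale band. Its signal there, 7.62, is above the 99th percentile of that array, 7.53.

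IFNγ was associated with a large log2 difference in *Apol9b* and a smaller one in *Apol9a*, but the 2 genes cannot be ranked by these values. A change past 1.5-fold, a log2 difference of 0.58, is called a rise or a fall here. Against control, the log2 difference of *Apol9b* with IFNγ was 2.49, which ranked 31 from the top among the 23521 probe sets. Because the control signal lay below background, the difference does not measure a fold, and set against the background level the rise was at least 1.91-fold. In the separate pair of arrays, both agents against benztropine alone, the difference of *Apol9b* was 2.04, at rank 41, and the rise at least 2.82-fold. Set against the 99th percentile of the receptors as background, the bound in this pair was 1.65-fold and no bound above 1 could be given against control.

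*Apol9a* had a log2 difference of 0.55 with IFNγ against control, or 1.47-fold, just under the threshold. In the pair with benztropine it rose 1.82-fold, a difference of 0.86. Both values are measured folds, since all 4 signals were above background. *Apol10b* differed by 0.61 and 0.47 in these pairs, with every signal below background, so neither gives a fold. The threshold thus fell between *Apol9a* and *Apol10b* in both pairs, in opposite order. *Apol6*, *Apol7a* and *Apol8* had differences of 0.07 to 0.16 against control and of −0.20 to −0.01 in the pair with benztropine.

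Counted by the threshold, 2 of the 6 genes (*Apol9b* and *Apol10b*) were higher with IFNγ against control, where 1.41% of all single-symbol probe sets were. With both agents against benztropine, 2 of the 6 (*Apol9b* and *Apol9a*) were higher, where 1.26% of all were. None of the 6 was lower in either pair, where 0.293% and 0.349% of all probe sets were. Since the genes were chosen with these values known, the counts are not evidence that the family responds more than other genes. The median difference over the 6 genes was 0.35 in the first pair and 0.23 in the second, beside 0.00 and −0.04 over all probe sets.

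**Figure D3:**
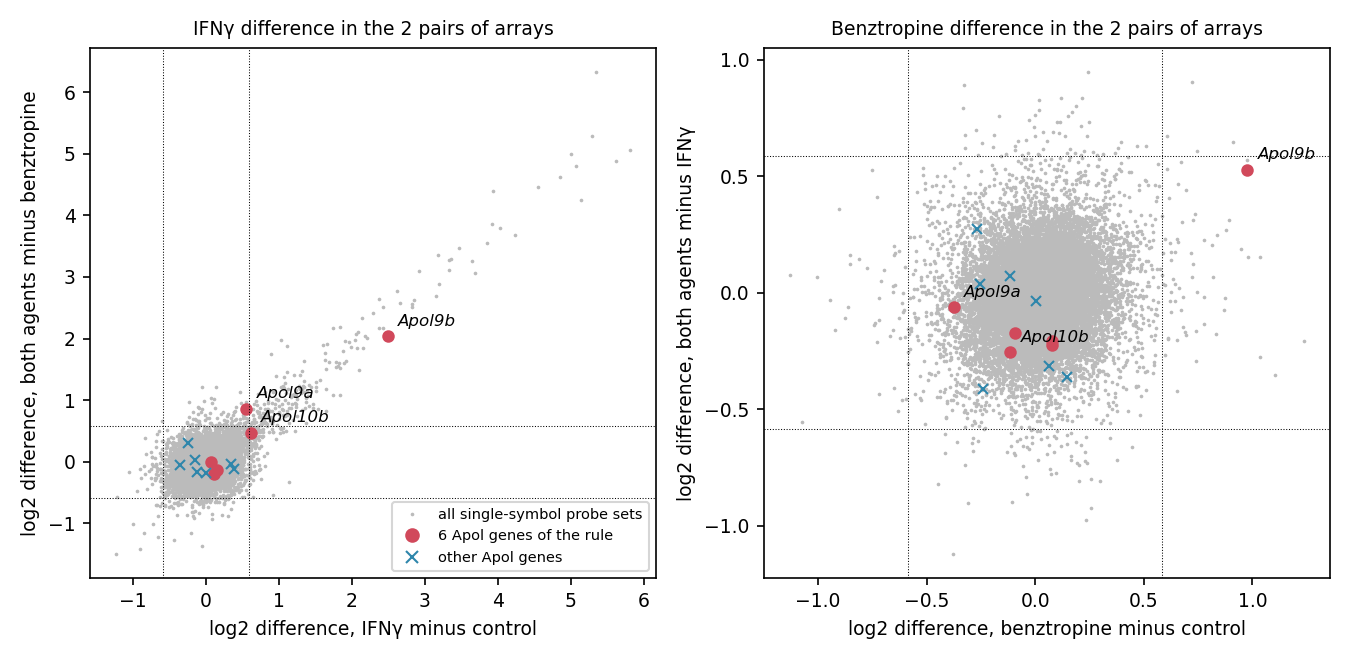
Log2 difference of each single-symbol probe set (grey) for IFNγ (left) and benztropine (right), with the pair against control on the horizontal axis and the pair in the presence of the other agent on the vertical axis. Red points are the 6 genes, blue crosses the 7 other apolipoprotein L genes, and dotted lines mark 1.5-fold. *Apol9b* lies at 2.49 and 2.04 on the left and at 0.97 and 0.53 on the right. The axes of a panel share no array, whereas the horizontal axes of the panels share the control array.

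Benztropine was also associated with a higher signal of *Apol9b*. Against control the log2 difference was 0.97, which ranked 7 from the top among all 23521 probe sets, but both signals (5.13 and 6.11) lay below background and no fold can be given. In the presence of IFNγ, where both signals were above background, *Apol9b* was 1.44-fold higher with benztropine, a log2 difference of 0.53 at rank 103, which is short of 1.5-fold. The shift therefore had the same direction in 2 pairs that share no array, once below background and once below the threshold. Since *Apol9b* was chosen with these values known, the shared direction is a description and no independent support. Probe sets below background in both arrays had differences with an SD of 0.19 across probe sets for benztropine against control, and 0.453% of them were higher past 1.5-fold, compared with 0.164% of those above background in at least 1 array. These figures describe probe sets and not replicates, and they are no yardstick for a gene chosen with its value known. Beside this shift, 2 of 9 fibroblast and leptomeningeal marker genes were higher with benztropine against control, *Dcn* by 1.11 and *Lum* by 0.89, with a median of 0.06 over the list. Both signals of *Dcn* were above background and both of *Lum*, 4.72 and 5.61, below it. With both agents against IFNγ, 1 of the 9 was higher, *Dcn* by 0.60 from an IFNγ signal of 6.39 below background, with a median of 0.07. Of all probe sets, 0.281% and 0.259% were higher in these pairs. The list had a median signal of 7.15 on the control array and 6.88 on the IFNγ array, and of 7.55 on the benztropine array and 6.99 on the combined array, and its part in the shift of *Apol9b* was not tested.

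*Apol9a* was not higher with benztropine in either pair. Its log2 difference was −0.37 against control, or 1.30-fold lower, and −0.06 in the presence of IFNγ, neither past 1.5-fold. The value against control ranked 308 from the bottom of all probe sets. The other 4 genes had differences of −0.11 to 0.08 against control and of −0.26 to −0.17 with both agents against IFNγ. In total, 1 of the 6 genes (*Apol9b*) was higher with benztropine against control, where 0.281% of all probe sets were, and 0 were lower, where 0.191% were. With both agents against IFNγ, 0 of the 6 passed in either direction, where 0.259% of all were higher and 0.281% lower.

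The combined array was compared with the sum of the differences of the single agents. For *Apol9b* the log2 difference of the combined array was 3.02, and the sum of the differences was 3.46. The IFNγ difference was therefore smaller by 0.45 in the presence of benztropine, at rank 1122 of the 23521 probe sets by size, within the middle 95% of all probe sets, −0.47 to 0.41. For a signal that starts below background the sum is not a sum of folds. For *Apol9a* the combined array differed from control by 0.49 and the sum was 0.18, so that the IFNγ difference was larger by 0.31 with benztropine, also within that range. The SD of this quantity over all probe sets was 0.21.

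*Apol9a* and *Apol9b* are near-identical copies, and the probe sequences were not used here. The extent to which each probe set also reads the other transcript is therefore unknown, and the values of the pair should be taken as uncertain in their division between the genes. On the IFNγ and combined arrays, where both probe sets were above background, benztropine went with a difference of 0.53 in *Apol9b* and −0.06 in *Apol9a*. On the control and benztropine arrays *Apol9b* was below background, so its values there cannot be set against those of *Apol9a*. For *Apol9a* the order of the arrays was benztropine, control, both agents, IFNγ, from lowest to highest, and for *Apol9b* the combined array was above the IFNγ array. With 1 array per condition it cannot be said which neighbours in these orders differ beyond the spread of cultures.

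The 7 apolipoprotein L genes outside the choice were below background on all 4 arrays, and 0 of them passed 1.5-fold in any of the 4 comparisons. Their IFNγ differences against control ran from −0.35 for *Apol7d* to 0.39 for *Apol11a*, with a median of −0.12. In the pair with benztropine they ran from −0.17 for *Apol10a* to 0.30 for *Apol7c*, with a median of −0.06. *Apol7e* had 0.35 and −0.03 in these pairs, *Apol7b* −0.15 and 0.03, and *Apol11b* −0.12 and −0.16. An ISRE core was present in the windows of *Apol7c*, *Apol7e*, *Apol10a*, *Apol11a* and *Apol11b*, so that 8 of the 11 family genes with a window held it. Among these 8, *Apol9a* and *Apol9b* were the genes with any signal above background. The windows of *Apol7b* and *Apol7e* had 2 mismatches over 295 aligned bases, as did those of *Apol11a* and *Apol11b* over 300, and these pairs also lie on opposite strands.

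The genes around the cluster did not pass the threshold. *Zfp647*, *1110038F14Rik* and *Mb* precede *Apol6*, *Rbfox2* follows it, and *Myh9*, *Txn2* and *Foxred2* follow *Apol8*, the last gene of the cluster. For these 7 genes the IFNγ difference ran from −0.08 to 0.21 against control and from −0.11 to 0.10 with both agents against benztropine. The large difference of *Apol9b* thus stood between *Apol7e* and *Apol8*, with differences of 0.35 and 0.07 against control.

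**Figure D4:**
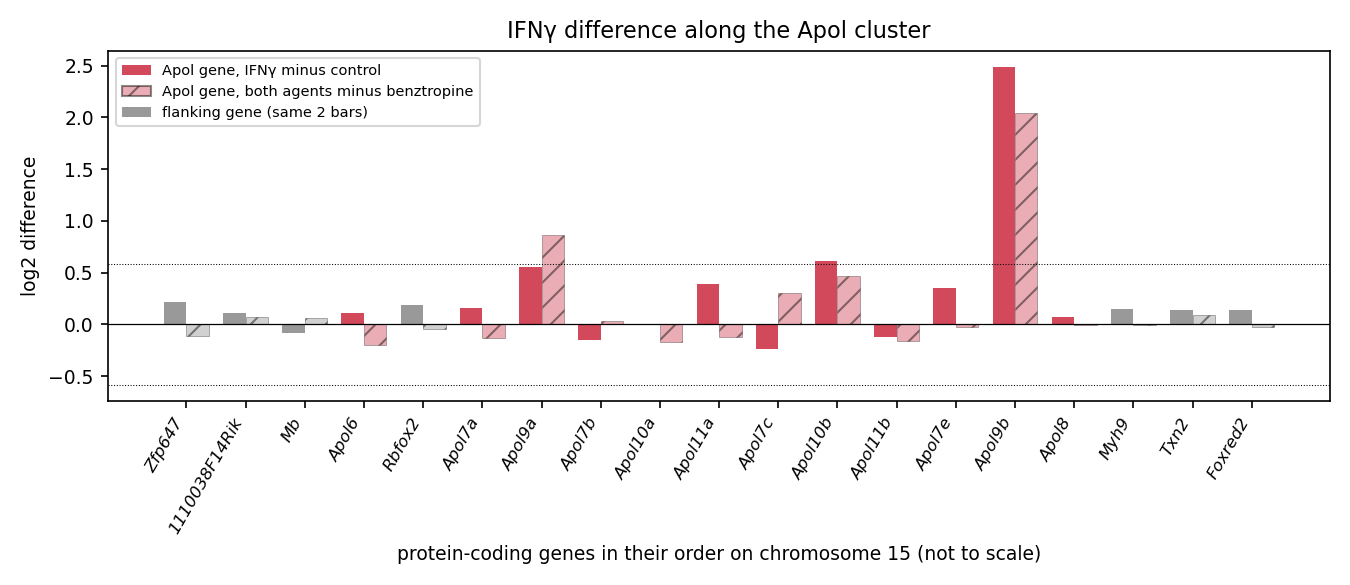
Log2 difference with IFNγ for 19 protein-coding genes in their order on chromosome 15, with apolipoprotein L genes in red and flanking genes in grey. Solid bars are IFNγ minus control, hatched bars both agents minus benztropine, and dotted lines mark 1.5-fold. *Apol9b* has the tallest bars of the region, at 2.49 and 2.04.

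Genes with the most similar pattern were sought among 14386 single-symbol probe sets above background on at least 1 array, by the Euclidean distance over the log2 differences from control on the 3 treated arrays. For *Apol9b* the nearest was *H2-T23*, from the nonclassical part of MHC class I, at a distance of 0.11. Its differences on the IFNγ, benztropine and combined arrays were 2.43, 0.91 and 3.07, against 2.49, 0.97 and 3.02 for *Apol9b*. *Acod1*, which encodes the enzyme that makes itaconate in activated macrophages, lay at 0.67, and *Ccl12*, a monocyte chemokine gene, at 0.71. *Acod1* differed by 2.37, 0.45 and 2.62 and *Ccl12* by 2.21, 0.53 and 2.54 in the same order. Beyond *H2-T23*, the distance to the next gene was thus several times larger. All 3 differences share the control array, so the likeness rests on 4 arrays and is a description. *Apol9b* entered the search through its 2 arrays with IFNγ. Each of its differences is taken from a control below background, and its benztropine difference has both signals there, so the distances are between signals and not between measured folds.

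For *Apol9a* the nearest genes were *Serpinb6b*, an intracellular serine protease inhibitor gene, *Casp12*, a gene of the inflammatory caspases, and *H2-DMb2*, which encodes a chain of the molecule that loads peptides onto MHC class II. Their distances were 0.22, 0.22 and 0.24. Each was higher with IFNγ, by 0.49, 0.60 and 0.39, and lower with benztropine, by −0.25, −0.21 and −0.23 on the log2 scale. Of these values only the IFNγ difference of *Casp12* passed 1.5-fold. *H2-DMb2*, with a control signal of 6.22, was below background on the control, IFNγ and benztropine arrays. It thus entered the search through the combined array only. *Serpinb6b* was below background on the benztropine array. These differences are therefore not all measured folds. *Apol9b* lay at 3.46 from *Apol9a*. *Apol10b* lay at 0.30 from *Apol9a*, but it was outside the search because its signals were all below background, so this distance describes no measured pattern.

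**Figure D5:**
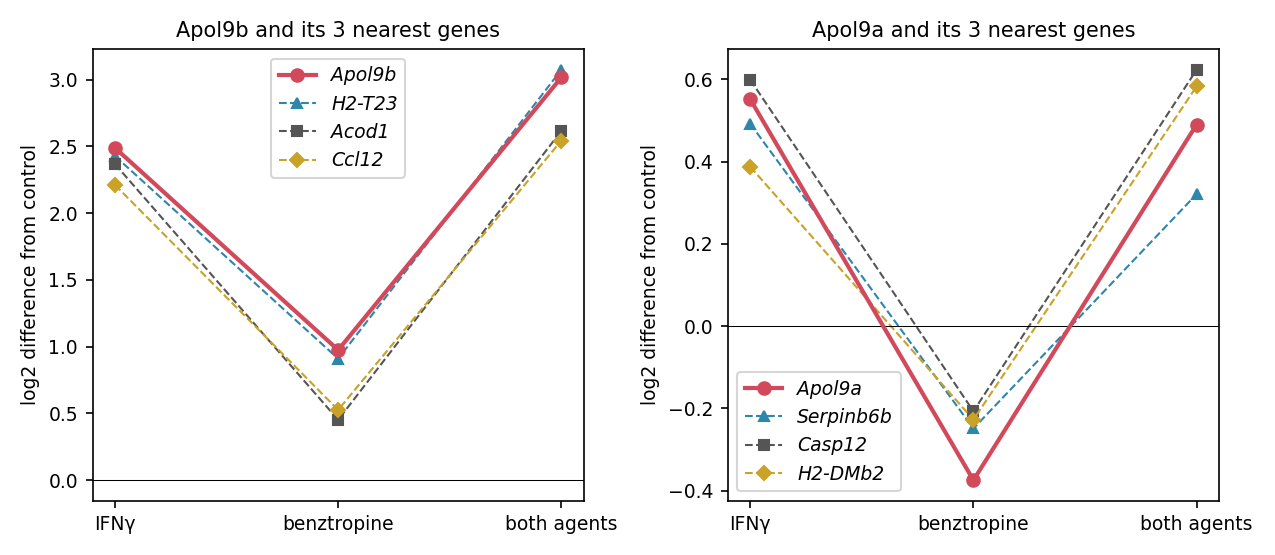
Log2 difference from control on the IFNγ, benztropine and combined arrays for *Apol9b* (left) and *Apol9a* (right), each with its 3 nearest genes, 1 array per point. Lines join the points of a gene and have no meaning between conditions, and the vertical scales differ. *Apol9b* and *H2-T23* lie within 0.11 of each other in total distance.

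The interferon genes measured beside the family serve as a reference for the size of these differences. The receptor and JAK-STAT signalling list holds genes of the IFNγ pathway, its regulators among them. Of its 15 measured genes, 3 rose with IFNγ against control, among them *Irf1*, a transcription factor gene, by 1.74 on the log2 scale. With both agents against benztropine 3 of the 15 rose, and *Irf1* rose by 2.17. Of all single-symbol probe sets, 1.41% and 1.26% rose in these pairs. Of 13 interferon-inducible GTPases, which attack the vacuoles of intracellular pathogens, 13 rose in each pair, with medians of 3.33 and 3.11. For 1 of these GTPases every signal was below background, so its rise gives no fold. Of 22 antiviral genes typical of type I interferon, 17 and 14 rose, with medians of 0.93 and 0.80. Against control, 1 of the 17 antiviral genes had both signals below background. *Oasl2* and *Zbp1* had the largest differences of that list, 2.10 and 2.06 against control. They were measured from controls above background, and *Apol9b*, with a control below it, cannot be ranked against them. With benztropine against control, 2 of the 13 GTPases and 2 of the 22 antiviral genes were higher, where 0.281% of all probe sets were. The GTPases were *Iigp1*, at 0.87, and *Gbp4*, at 0.82 with both signals below background. The antiviral genes were *Oasl2*, at 0.81, and *Oas2*, at 0.63. The medians of the lists were 0.27 and 0.26, whereas the median over all probe sets was 0.01. With both agents against IFNγ, 0 of the 13 and 1 of the 22 were higher, where 0.259% of all were, and the medians were −0.01 and 0.12. The differences of *Apol9b* in these pairs were 0.97, with both signals below background, and 0.53. They are values of a single gene and are not comparable with the median of a list.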

How the data were processed

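RNA of 4 conditions was hybridized to Affymetrix GeneChip Mouse Gene arrays. The deposited values are log2 signals, which the authors made in Affymetrix Expression Console with the RMA method (background correction, quantile normalization over the arrays, summary per probe set). No further normalization was applied. Quantile normalization sets the arrays to 1 distribution, so a shift of all genes would not show. The genome build behind the array annotation is not given in the sources used here. The number of arrays limits the precision, and counting depth does not apply. Genes were named from the platform annotation, and 23521 probe sets with 1 symbol were used.

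Differences were taken between arrays with the threshold of 1.5-fold and no test. The 6 genes, the other gene lists and the rule for naming genes (the family, flanking genes, 3 nearest genes for each member above background on an array, at most 2 genes with the largest IFNγ difference per other list) were set with earlier results of these data known. *S100b*, *Dcn* and *Lum* fall outside that rule and were named after their values were seen, and some genes of the JAK-STAT list are not reported here. A gene with several probe sets was taken at their mean. Bounds were set against the 95th percentile of receptor probe sets. RefSeq promoters were aligned globally with free end gaps (match 2, mismatch −1, gap opening −5, extension −0.5). Alternatives were a threshold of 2-fold, a further quantile normalization, a loess trend (span 0.3) removed, centring on the median, probe sets above background only, probe sets with no symbol or several kept, and the 99th percentile as background. The steps were tested on simulated data. Python 3.11.15, numpy 2.4.6, pandas 2.3.3, statsmodels 0.14.6, biopython 1.88 and matplotlib 3.10.9 were used.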

Additional observations from a re-analysis of the deposited data

Results flagged for a closer look

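For 5 of the 12 agent differences of the 6 genes, the direction without and with the other agent was opposite, and the difference between the pairs was not tested. With IFNγ, *Apol6* differed by 0.11 and −0.20, *Apol7a* by 0.16 and −0.13, and *Apol8* by 0.07 and −0.01 on the log2 scale. With benztropine, *Apol6* differed by 0.08 and −0.23 and *Apol7a* by 0.08 and −0.21. The value of −0.01 in *Apol8* was 0.0247 to 0.0310 under quantile normalization, loess removal and centring, so its direction was then the same in both pairs. None of these values passed 1.5-fold and all the signals were below background.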

How the results depend on the processing

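The counts of genes past the threshold were small and moved with its level. At 2-fold, 1 gene in place of 2 was higher with IFNγ against control, 1 in place of 2 with both agents against benztropine, and 0 in place of 1 with benztropine against control, where 0.616%, 0.506% and 0.0213% of all single-symbol probe sets were. Restricted to probe sets with a signal above background on either array of a pair, 1 gene was higher with IFNγ against control and 0 with benztropine against control, where 1.92% and 0.164% of such probe sets were. The 1 gene with IFNγ was *Apol9b* in each case. Under quantile normalization, loess removal and centring, all 72 single differences of the 6 genes kept their side of 1.5-fold, and the largest shift was 0.045 on the log2 scale. The numbers of genes above background were the same with the 99th percentile as background, 1 or 2 per array. With quantile normalization, the nearest genes of *Apol9b* were the same 3, and *H2-DMb2* was no longer among those of *Apol9a*. With the probe sets of several symbols and those of none both kept, 2.65% of all probe sets were higher with IFNγ against control, in place of 1.41%, and 1.41% with benztropine against control, in place of 0.281%. No paired analysis was possible because each condition has 1 array. For the same reason no replicate could be left out.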

Other observations

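Other genes classed as apolipoproteins, outside the apolipoprotein L family, were measured on the same arrays. Of 16 such genes 11 were above background in control, and 0 passed 1.5-fold in any of the 4 comparisons. The largest IFNγ differences against control were those of *Apoc1*, 0.41, and *Apod*, 0.38, both lipid-binding proteins of glia and macrophages. In the pair with benztropine they had 0.47 and 0.00.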
